A study of Mus musculus with 24 samples.

Results

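Microglia of a design for tamoxifen-induced deletion of Dicer1 were compared between 2 schedules. The question was whether the difference between Cre+ and Cre- microglia after remyelination depends on when tamoxifen was given. The account covers 12 of the 24 RNA-seq libraries of the series, chosen by their labels: the 4 remyelination groups of 3 mouse libraries each. In every one of them adult mice had been fed cuprizone, a copper chelator that strips myelin from the brain, for 6 weeks and then normal diet for 6 weeks, and microglia had been flow-sorted as CD45int/CD11b+ cells. The 4 groups were Cre+ with tamoxifen at the peak (week 5 of cuprizone), Cre- with tamoxifen at the peak, Cre+ with tamoxifen at the start, and Cre- with tamoxifen at the start. The series text places the start at 4 to 5 weeks. It does not say what those weeks are counted from, so the interval between both schedules is not known. Cre+ mice carry Cx3cr1creERT2, a recombinase that tamoxifen activates in cells with an active Cx3cr1 gene, and the series text speaks of Dicer1 KO and WT mice beside the Cre+ and Cre- groups. The groups therefore also differ in carrying the Cx3cr1creERT2 allele itself. Animal age, the floxed Dicer1 exon and whether mice were pooled have no source here.

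Dicer1 encodes the ribonuclease that cuts hairpin precursors into mature microRNAs, the short RNAs that direct Argonaute proteins to mRNAs and lower their stability and translation. Microglia are the resident macrophages of the brain. After cuprizone they take up myelin debris, divide and change to a reactive state, and return towards rest while oligodendrocyte precursors rebuild myelin.

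The 12 libraries held 8873275 to 12560540 gene-level counts each. Levels are given as CPM, counts relative to library size after TMM scaling (trimmed mean of M values). An effect is the log2 difference of Cre+ minus Cre- within 1 schedule, and the interaction is the peak effect minus the start effect, so each effect is taken against Cre- libraries of its own schedule. Libraries of both schedules carry different naming schemes in the labels, so a level that differs between schedules cannot be told apart from a difference in handling. Schedule and naming scheme change together, so for the interaction, too, timing cannot be told apart from handling that alters the genotype effect. A gene is called when the adjusted p (edgeR's quasi-likelihood test, Benjamini-Hochberg over all genes tested) is under 0.05.

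The genotype marker went with the labels. Cx3cr1, whose locus carries the recombinase, stood at 4177, 4086 and 4167 CPM in peak Cre+ libraries, against 8403, 7949 and 10230 CPM in peak Cre- libraries. Start Cre+ libraries held 4194, 4083 and 4943 CPM, against 8353, 7365 and 8987 CPM in start Cre- libraries. All 6 Cre+ libraries were below all 6 Cre- libraries, and the interaction was not called (log2 -0.19 ± 0.16, SE; adjusted p = 0.543). Dicer1 itself (chromosome 12, 104687742 to 104751952, GRCm38) averaged 35.7 ± 1.21 CPM in peak Cre+ and 37.8 ± 2.91 CPM in peak Cre- libraries, and 39.0 ± 1.18 CPM in start Cre+ and 40.7 ± 3.13 CPM in start Cre- libraries (SD, n = 3 each). Counts over the whole gene do not measure the loss of an exon, so they neither check the deletion nor compare its extent between schedules. The homeostatic microglial genes (20 tested) summed to 80090 to 110500 CPM over the 12 libraries, so the markers of the labelled cell type were present in each.

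A pair of libraries stood apart by neutrophil transcripts. The 11 neutrophil markers summed to 6378 CPM in peak Cre+ replicate 3 and to 4874 CPM in start Cre- replicate 2, against 214 to 2068 CPM in the other 10 libraries. S100a8 reached 1485 CPM in peak Cre+ replicate 3, beside 155.9 and 142.6 CPM in the other peak Cre+ libraries. Both libraries enter the interaction with a positive sign, so neutrophil transcripts in either of them raise it. The neutrophil list had a median effect of 3.12 at the peak and -1.48 at the start. Its median interaction was 4.70 with 0 of 11 members called. The counts of called genes and of cell cycle, mural and chaperone members are also given without both libraries, an alternative chosen after the data were seen.

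The genotype effect differed between the schedules for 616 of 15743 genes tested (3.91%), 386 with a higher interaction (2.45%) and 230 with a lower one (1.46%). With tamoxifen at the peak, 1840 genes were called between Cre+ and Cre- (11.7%; 1076 higher, 764 lower), and with tamoxifen at the start 16 (0.102%; 13 higher, 3 lower). Of the 616 genes, 552 were also called at the peak, 4 at the start (Hspb1, Hspe1, Crtap and Nnt) and 60 at neither. Unadjusted p was under 0.05 for 2924 genes. The median effect over all genes was -0.02 at the peak and 0.00 at the start. Among the 386 higher genes, 328 had all 3 peak Cre+ libraries above the other 9 libraries, and among the 230 lower genes 157 had them below. Such a position was held by the peak Cre+ group for 2067 of all genes tested, against 229 for peak Cre-, 266 for start Cre+ and 293 for start Cre-. Effects at both schedules, which share no library, had Pearson's r of -0.152 and Spearman's rho of -0.0216 across genes, a description over genes that are not independent replicates.

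**Figure D1:**
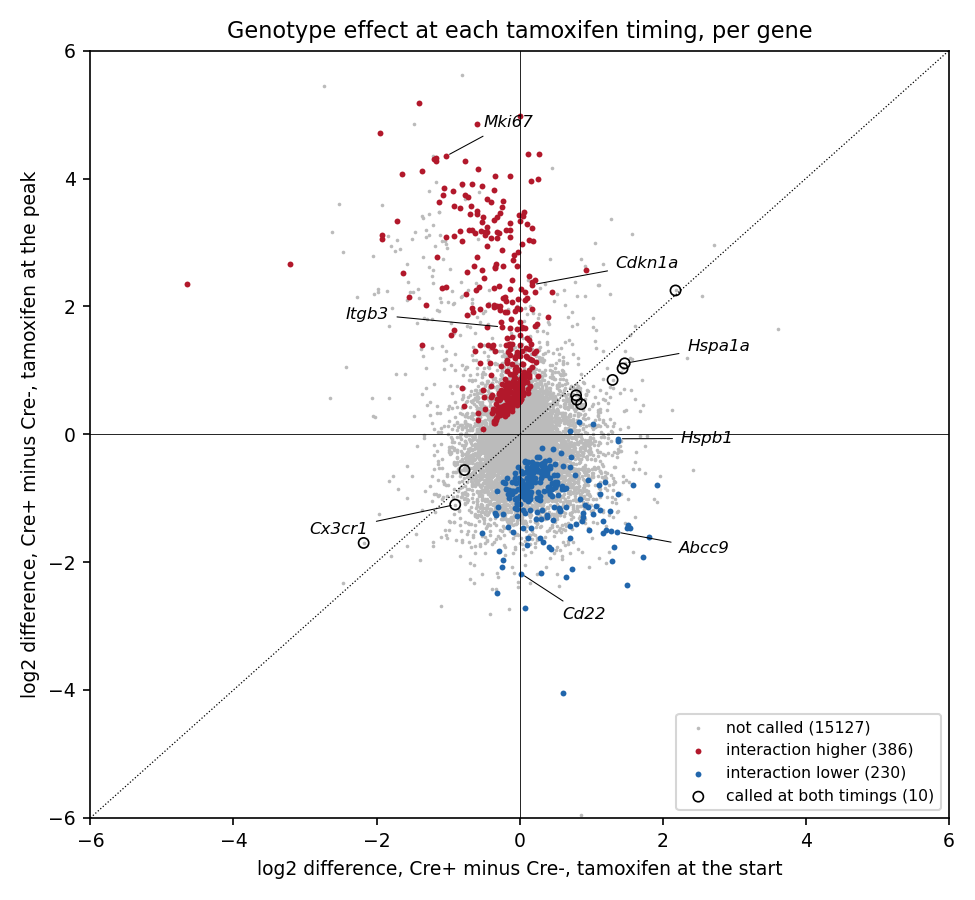
Genotype effect of every gene tested with tamoxifen at the start (horizontal axis, log2 of Cre+ minus Cre-) and at the peak (vertical axis, the same quantity), with the dotted line marking equal effects and 1 gene outside the axes. Genes with a higher interaction (386, red) lie above the dotted line and genes with a lower interaction (230, blue) below it, and the 10 genes called at both schedules are circled.

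The number of called interactions moved with single libraries. It was 983 without peak Cre+ replicate 1, 320 without peak Cre- replicate 2, 314 without start Cre+ replicate 2, 383 without start Cre- replicate 2 and 402 without start Cre- replicate 3, and 293 without both neutrophil-rich libraries (210 higher, 83 lower), of which 278 were among the 616. The peak count was 1223, 1051 and 907 without peak Cre+ replicate 2, peak Cre+ replicate 3 and peak Cre- replicate 2, and the start count was 34 and 26 without peak Cre+ replicates 1 and 3, all other leave-outs staying within 1.5 times.

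Most cell cycle genes rose with tamoxifen at the peak and had a higher interaction. Of 27 cell cycle genes, 25 had a higher interaction (2.45% of all genes did) and 0 a lower one (1.46% did). The median was 3.41, against 0.00 over all genes. At the peak 26 of the 27 rose in Cre+ (6.83% of all genes did) with a median effect of 3.16, and at the start 0 were called (0.0826% of all genes rose) with a median of -0.31. The count of 25 was the same without both neutrophil-rich libraries and lay between 25 and 26 with any single library left out. For 25 of the 27 the 3 peak Cre+ libraries were above the other 9. Over all genes they were above or below the other 9 for 2067 of 15743. Summed over the list the level was 826.8, 685.2 and 807.9 CPM in peak Cre+ libraries, against 211.1, 217.3 and 231.2 CPM in peak Cre- libraries, and 241.6, 232.7 and 207.7 CPM in start Cre+ libraries, against 235.5, 282.4 and 265.3 CPM in start Cre- libraries. The peak Cre+ libraries stood apart, and the other 9 lay between 207.7 and 282.4 CPM.

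Mki67 (ENSMUSG00000031004, chromosome 7, 135689784 to 135716361), which encodes the proliferation antigen Ki-67 of dividing cells, stood at 57.0, 57.9 and 56.2 CPM in peak Cre+ libraries, against 2.31, 2.61 and 3.42 CPM in peak Cre- libraries. With tamoxifen at the start it stood at 3.22, 4.18 and 2.48 CPM in Cre+ libraries, against 4.67, 8.15 and 7.51 CPM in Cre- libraries. The 3 peak Cre+ libraries, the neutrophil-rich one included, lay close together and far above the other 9. The interaction was 5.38 ± 0.30 (SE; 95% interval 4.76 to 6.00; adjusted p = 5.91e-10), made of a peak effect of 4.35 ± 0.21 (adjusted p = 2.99e-11) and a start effect of -1.03 ± 0.22 (adjusted p = 0.0768).

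Mitotic regulators rose at the peak with Mki67. Ccnb1 (chromosome 13, 100778650 to 100786570), the B-type cyclin that drives entry into mitosis, stood at 30.6, 23.2 and 22.4 CPM in peak Cre+ libraries, against 2.42, 2.12 and 1.57 CPM in peak Cre- libraries. At the start schedule, Cre+ libraries held 1.70, 1.86 and 0.918 CPM, against 2.23, 4.73 and 2.85 CPM in start Cre- libraries. The interaction was 4.76 ± 0.42 (adjusted p = 9.52e-07). Bub1b (chromosome 2, 118598211 to 118641591), a kinase of the spindle checkpoint, averaged 23.4 ± 2.88 CPM in peak Cre+ and 2.61 ± 0.14 CPM in peak Cre- libraries, and 3.47 ± 1.13 CPM in start Cre+ and 4.85 ± 0.75 CPM in start Cre- libraries (SD, n = 3 each; interaction 3.65 ± 0.33, adjusted p = 1.18e-06). Their partners had interactions of 2.82 (Cdk1, the mitotic cyclin-dependent kinase), 3.21 (Ccna2, cyclin A2), 3.77 (Plk1) and 3.91 (Aurkb), the last 2 being kinases of mitosis. Foxm1, the transcription factor that drives late cell cycle genes, stood at 20.7, 15.7 and 20.2 CPM in peak Cre+ libraries, against 2.31, 3.26 and 1.57 CPM in peak Cre- libraries, with 1.74 to 4.18 CPM over the 6 start libraries. The interaction was 2.93 ± 0.47 (adjusted p = 0.00119).

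The 12 largest positive interactions among called genes with an official symbol and a mean log2 CPM of at least 2 are all known from dividing cells: Pbk (5.52), Kif18b (5.45), Mki67, Rrm2 (5.02), Pimreg (4.97), Ube2c (4.92), Kif11 (4.82), Ccnb1, Birc5 (4.58), Top2a (4.50), Kif23 (4.40) and Ccnb2 (4.39). Pbk is a mitotic kinase, Kif18b, Kif11 and Kif23 are mitotic kinesins, and Rrm2 is the S-phase subunit of ribonucleotide reductase. Top2a, the topoisomerase that untangles sister chromatids, stood at 76.3, 53.9 and 52.4 CPM in peak Cre+ libraries and at 3.76 to 10.8 CPM over the other 9 libraries. Their calls held under all 19 alternatives, and their adjusted p was at most 0.00565 in any of them.

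Helicase subunits and other S-phase genes of the list had called interactions too. Mcm5, Mcm2 and Mcm6, subunits of the replicative helicase, had interactions of 1.99 ± 0.22, 1.57 and 1.28, and E2f1, a transcription factor of S-phase entry, had 1.76. Mcm5 stood at 37.6, 31.8 and 40.7 CPM in peak Cre+ libraries, against 9.90, 9.86 and 9.07 CPM in peak Cre- libraries, and at 9.91 to 13.9 CPM over the 6 start libraries. Pcna, the clamp of the replicative polymerase, had the smallest called interaction of the list (0.76, adjusted p = 0.00779). It stood at 49.5 to 51.5 CPM in peak Cre+ and 36.3 to 40.6 CPM in peak Cre- libraries. Start Cre+ libraries held 32.6 to 39.3 CPM, against 42.2 to 54.3 CPM in start Cre- libraries. Its effects were 0.39 at the peak and -0.37 at the start (adjusted p = 0.354 at the start). Mcm3 (0.49, adjusted p = 0.0924) and Tyms (0.31, adjusted p = 0.495) were the only list members not called. Mcm7, listed as a microRNA host gene and also a helicase subunit, had an interaction of 1.21 ± 0.22 (adjusted p = 0.00243).

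**Figure D2:**
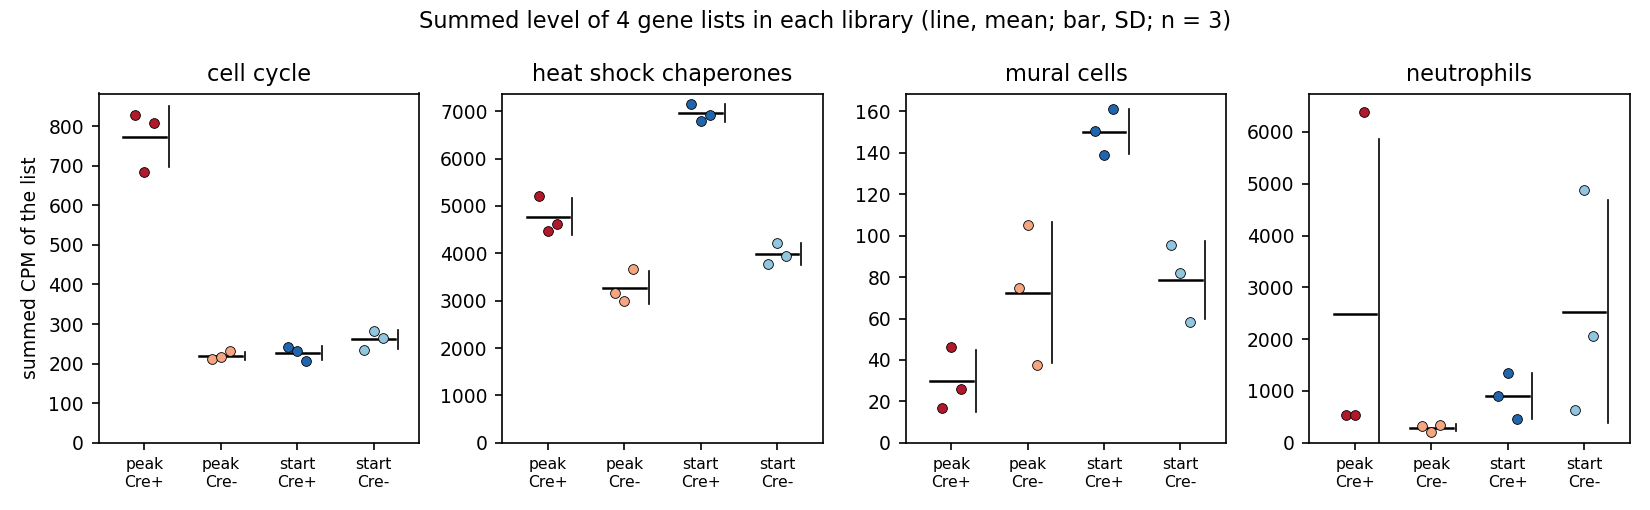
Summed CPM of 4 gene lists in each library (points), with the mean (line) and SD (bar) of 3 libraries per group. The cell cycle list is high in the 3 peak Cre+ libraries only, the heat shock list is higher in Cre+ than in Cre- libraries at both schedules, the mural list averages lowest in peak Cre+ and highest in start Cre+ libraries, and the neutrophil list is high in 1 peak Cre+ and 1 start Cre- library.

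The promoters of the 3 cell cycle genes with the smallest interaction p are shown because the members moved together, as 300 bases from 250 before to 50 after the RefSeq start (GRCm38.p6), read on the gene's strand. Mki67 lies at chr7:135716330-135716629 (minus strand), Ccnb1 at chr13:100786437-100786736 (minus strand) and Bub1b at chr2:118597961-118598260 (plus strand). Capitals mark CCAAT boxes (CCAAT), bound by the factor NF-Y, and cell cycle homology regions (TTTGAA or TTCGAA), bound by the MuvB core of the DREAM and B-MYB-FOXM1 complexes, searched on both strands.
Mki67: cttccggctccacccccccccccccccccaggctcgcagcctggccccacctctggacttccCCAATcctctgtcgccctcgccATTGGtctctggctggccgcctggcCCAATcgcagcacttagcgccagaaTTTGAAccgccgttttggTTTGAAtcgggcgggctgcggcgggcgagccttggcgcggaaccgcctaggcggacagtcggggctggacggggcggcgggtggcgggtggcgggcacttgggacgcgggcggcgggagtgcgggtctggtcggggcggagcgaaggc
Ccnb1: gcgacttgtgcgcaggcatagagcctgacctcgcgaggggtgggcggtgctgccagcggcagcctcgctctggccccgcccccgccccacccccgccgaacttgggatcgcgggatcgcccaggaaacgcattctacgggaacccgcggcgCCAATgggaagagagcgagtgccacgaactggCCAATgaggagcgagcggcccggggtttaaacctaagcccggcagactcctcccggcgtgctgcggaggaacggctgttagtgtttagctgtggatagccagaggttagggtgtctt
Bub1b: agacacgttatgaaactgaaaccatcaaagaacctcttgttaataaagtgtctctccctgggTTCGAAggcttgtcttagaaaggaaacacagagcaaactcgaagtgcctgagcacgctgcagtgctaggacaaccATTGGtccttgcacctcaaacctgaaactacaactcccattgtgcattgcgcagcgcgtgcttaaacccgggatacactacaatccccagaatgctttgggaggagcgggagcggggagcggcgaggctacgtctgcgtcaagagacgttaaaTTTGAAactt
Mki67 held 3 CCAAT and 2 TTTGAA matches, Ccnb1 held 2 CCAAT and 0 matches to the other motif, and Bub1b held 1 CCAAT, 1 TTCGAA and 1 TTTGAA match, with no overlap between motifs. Of the 25 called cell cycle genes 21 had a promoter in the RefSeq table (22 promoters). A CCAAT match was in 90.9% of these and in 37.4% of all 32851 promoters of that length, a TTTGAA or TTCGAA match in 63.6% and 19.2%, and both in 63.6% and 7.52%. The shares describe a chosen list of cell cycle genes. None was taken for called genes outside that list, so they say nothing about the interaction. The matches describe these letters and are not evidence of binding in these cells.

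Cdkn1a and a pair of chemokines were also higher in peak Cre+ microglia. Cdkn1a (chromosome 17, 29090976 to 29100727), the p21 inhibitor of cyclin-dependent kinases, stood at 65.1, 48.4 and 51.3 CPM in peak Cre+ libraries, against 9.24, 11.4 and 11.8 CPM in peak Cre- libraries. With tamoxifen at the start it stood at 27.1, 20.3 and 18.3 CPM in Cre+ libraries, against 15.7, 25.1 and 17.1 CPM in Cre- libraries. The peak Cre+ libraries were above and the peak Cre- libraries below all others, and the interaction was 2.16 ± 0.26 (adjusted p = 8.69e-05). Of the 19 p53 targets tested, 7 rose at the peak (6.83% of all genes did; median 0.27) and 0 at the start (0.0826% did; median -0.02). A higher interaction was called for 2 (2.45% over all genes), Cdkn1a and Sesn1 (0.62, adjusted p = 0.0263), a stress-induced inhibitor of mTORC1 signalling. The call of Sesn1 was lost in 7 of 12 leave-outs of 1 library.

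Among 14 cytokine and chemokine genes 2 had a higher interaction (2.45% over all genes), both monocyte-attracting chemokines. Ccl2 stood at 74.0, 37.6 and 51.1 CPM in peak Cre+ libraries, against 20.8, 15.1 and 15.7 CPM in peak Cre- libraries. The start Cre+ values were 26.5 to 29.4 CPM, against 25.7 to 34.2 CPM in start Cre- libraries. The interaction was 1.79 ± 0.30 (adjusted p = 0.00386). The peak groups did not overlap and the start groups did. Ccl7 had an interaction of 1.68 ± 0.45 (adjusted p = 0.0384), a call lost in 9 of 12 leave-outs. Summed over 9 genes, the monocyte markers stood at 113.9, 134.9 and 789.3 CPM in peak Cre+ and at 91.3 to 112.4 CPM in peak Cre- libraries, with 0 members called, and their part in the chemokine values was not tested.

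Some cell-surface, matrix and transport genes rose with tamoxifen at the peak. Itgb3 (chromosome 11, 104608000 to 104670476), the integrin beta 3 chain, stood at 288.5, 554.8 and 515.2 CPM in peak Cre+ libraries, against 126.3, 140.4 and 157.7 CPM in peak Cre- libraries. In start Cre+ libraries it was 147.7, 147.8 and 128.2 CPM, against 147.9, 157.2 and 199.6 CPM in start Cre- libraries. Every peak Cre+ library was above every other library, with replicate 1 the lowest of them. The interaction was 1.93 ± 0.30 (adjusted p = 0.00407). Nid2, the basement membrane protein nidogen 2, stood at 120.0, 225.0 and 214.7 CPM in peak Cre+ libraries, against 46.6, 49.5 and 47.5 CPM in peak Cre- libraries, with 29.3 to 48.6 CPM over the start libraries. The interaction was 1.79 ± 0.33 (adjusted p = 0.0149). Replicate 1 was again the lowest peak Cre+ library for Tbc1d5 (236.5, 490.3 and 503.1 CPM), a GTPase-activating protein of endosomal transport, for Heatr1 (128.1, 199.8 and 209.9 CPM), a ribosome assembly factor, and for Cd34 (564.7, 856.0 and 915.8 CPM), a sialomucin. Their interactions were 1.55, 1.05 and 0.80, and the calls of Tbc1d5 and Cd34 were each lost in 8 of 12 leave-outs.

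Other genes also rose with tamoxifen at the peak. Sgk1, a kinase induced by glucocorticoids, averaged 1085 ± 79.2 CPM in peak Cre+ and 555.2 ± 59.4 CPM in peak Cre- libraries, and 781.3 ± 138 CPM in start Cre+ and 814.9 ± 86.6 CPM in start Cre- libraries (SD, n = 3 each; interaction 1.03 ± 0.18, adjusted p = 0.00142). Slc40a1, the iron exporter ferroportin, averaged 555.1 ± 83.4 CPM in peak Cre+ and 300.9 ± 43.9 CPM in peak Cre- libraries, and 300.7 ± 30.3 CPM in start Cre+ and 289.3 ± 25.8 CPM in start Cre- libraries. The interaction was 0.83 ± 0.18 (adjusted p = 0.0105). It was the called member of the 14 iron genes (2.45% of all genes had a higher interaction). Sparc, a secreted matrix glycoprotein of microglia, was the called member of the 20 homeostatic genes, against the same 2.45%. It stood at 4097, 5268 and 5484 CPM in peak Cre+ libraries and 2474 to 3353 CPM over the other 9. The interaction was 0.69 ± 0.16 (adjusted p = 0.0151). This call was lost without peak Cre+ replicate 3, without start Cre+ replicate 2 and without both neutrophil-rich libraries (adjusted p at most 0.0646).

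**Figure D3:**
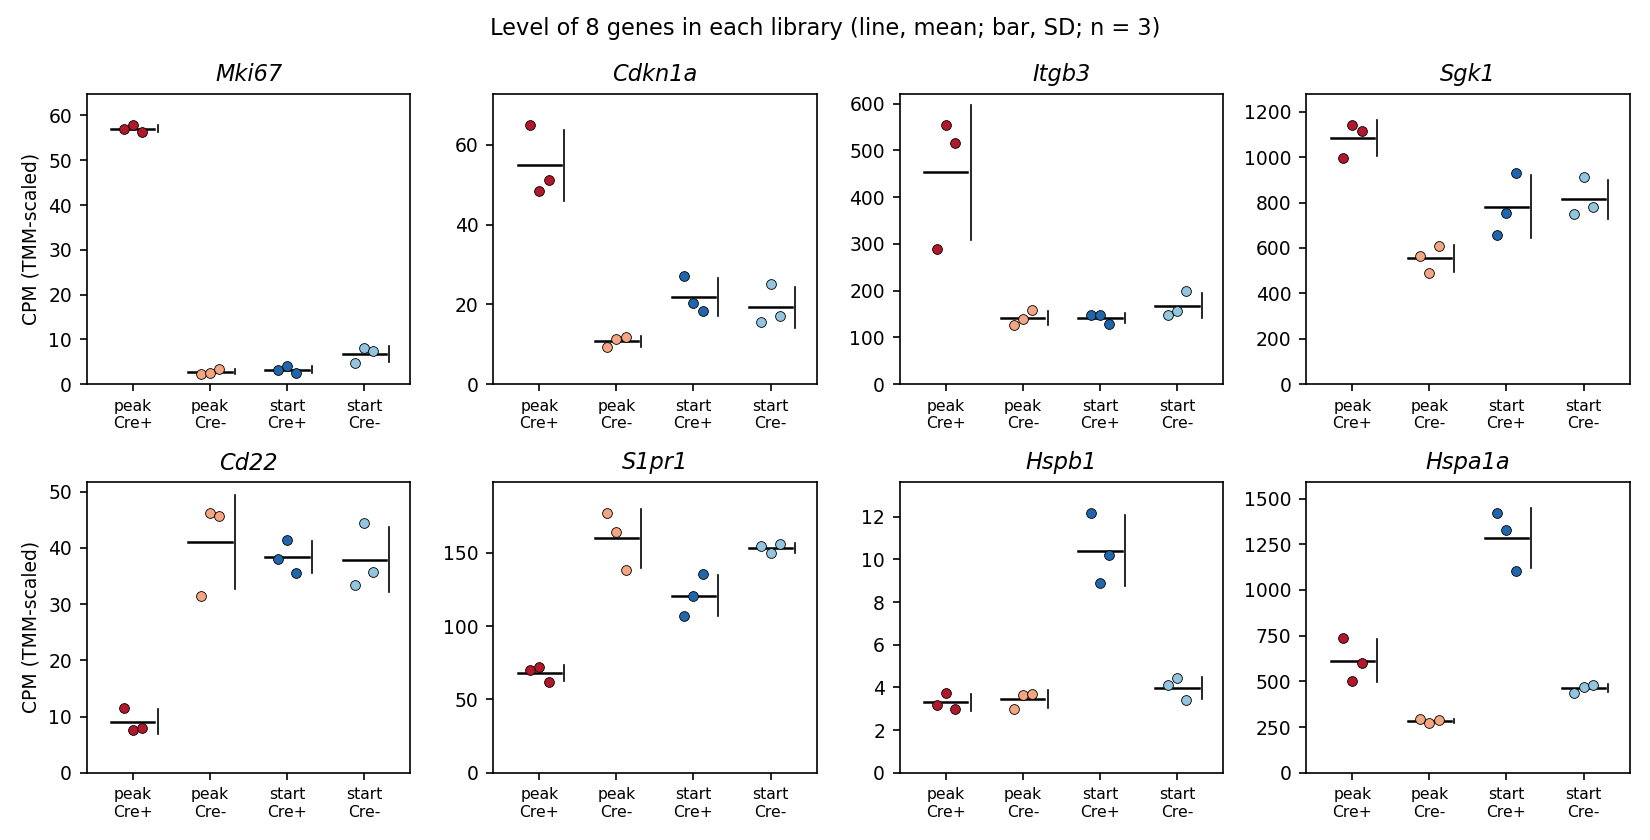
CPM of 8 genes in each library (points) with the mean (line) and SD (bar) of 3 libraries per group, on axes that start at 0. Mki67, Cdkn1a, Itgb3 and Sgk1 are highest and Cd22 and S1pr1 lowest in the 3 peak Cre+ libraries, Hspb1 is high in start Cre+ libraries, and Hspa1a is higher in Cre+ than in Cre- libraries at both schedules.

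Cd22, Pirb and S1pr1, all receptors of the cell surface, fell in peak Cre+ microglia. Cd22 (chromosome 7, 30865402 to 30880342), a sialic acid-binding receptor known to restrain phagocytosis by microglia, stood at 11.6, 7.65 and 7.94 CPM in peak Cre+ libraries, against 31.4, 46.2 and 45.6 CPM in peak Cre- libraries. At the start schedule, Cre+ libraries held 38.1, 41.5 and 35.6 CPM, against 33.5, 44.4 and 35.7 CPM in start Cre- libraries. The peak Cre+ libraries lay below all others and the start groups overlapped. The interaction was -2.20 ± 0.24 (95% interval -2.70 to -1.70; adjusted p = 2.03e-05), with a start effect of 0.02 ± 0.16. Pirb, an immunoglobulin-like receptor that also inhibits signalling, stood at 45.1, 33.6 and 47.8 CPM in peak Cre+ libraries, against 87.4, 94.0 and 84.9 CPM in peak Cre- libraries, with 94.4 to 111.0 CPM over the start libraries. The interaction was -1.04 ± 0.16 (adjusted p = 0.000493). S1pr1, a receptor for sphingosine 1-phosphate, stood at 70.4, 72.1 and 61.9 CPM in peak Cre+ libraries, against 177.0, 164.2 and 138.0 CPM in peak Cre- libraries. The start Cre+ values were 106.8, 120.4 and 135.2 CPM, against 154.6, 149.7 and 155.7 CPM in start Cre- libraries. The interaction was -0.88 ± 0.15 (adjusted p = 0.00174). Its Cre+ libraries were below the Cre- libraries at both schedules, though the start effect of -0.34 was not called (adjusted p = 0.372).

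Other lower interactions had calls of different firmness. Fblim1, a filamin-binding adaptor of the cytoskeleton, stood at 12.73, 10.1 and 12.98 CPM in peak Cre+ libraries and 28.2 to 37.9 CPM in the other 9. The interaction was -1.29 ± 0.17 (adjusted p = 0.000107). Cyp27a1, the mitochondrial sterol 27-hydroxylase, stood at 82.0, 68.1 and 90.1 CPM in peak Cre+ libraries, against 138.7, 139.5 and 128.9 CPM in peak Cre- libraries. In start Cre+ libraries it was 149.5 to 156.1 CPM, against 132.9 to 140.7 CPM in start Cre- libraries. The interaction was -0.92 ± 0.14 (adjusted p = 0.000453). Cre+ lay below Cre- at the peak and above it at the start without overlap, and the start effect of 0.16 was not called (adjusted p = 0.715). Lag3, an inhibitory receptor, had an interaction of -1.01 ± 0.26 (adjusted p = 0.0494), a call lost in 9 of 12 leave-outs. Of 23 genes of NF-kB and Toll-like receptor signalling 3 rose and 4 fell at the peak (6.83% and 4.85% over all genes). A lower interaction was called for 3 (1.46% over all genes), with a list median of 0.00: Nfkbie (-0.63, adjusted p = 0.0187), an inhibitor of NF-kB, Tlr1 (-0.78, adjusted p = 0.0237), a receptor for bacterial lipoproteins, and Tnfaip2 (-0.72, adjusted p = 0.0497), lost in 4, 8 and 10 of 12 leave-outs.

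Some disease-associated and lysosomal genes fell at the peak, and few of them had a called interaction. Of 24 disease-associated genes, those that microglia raise around damaged myelin and plaques, 10 fell at the peak, against 4.85% of all genes. At the start 0 fell, against 0.0191% of all genes. The median effects were -0.49 at the peak and -0.26 at the start. The interaction was lower for 2 (1.46% over all genes) and higher for 1 (2.45% over all genes), with a median of -0.17. Ctsd (chromosome 7, 142375911 to 142388038), the lysosomal protease cathepsin D, stood at 9306, 7838 and 8272 CPM in peak Cre+ libraries, against 13190, 13450 and 14430 CPM in peak Cre- libraries. Start Cre+ libraries held 11990, 12220 and 11390 CPM, against 11720, 12930 and 12490 CPM in start Cre- libraries. The interaction was -0.63 ± 0.13 (adjusted p = 0.009). The call was lost without peak Cre+ replicate 3 and without both neutrophil-rich libraries (adjusted p at most 0.0555). Timp2, an inhibitor of matrix metalloproteinases, had -0.56 (adjusted p = 0.032) and Ctsl, cathepsin L, had 0.62 (adjusted p = 0.04), calls lost in 9 and 8 of 12 leave-outs. Cd63, a tetraspanin of late endosomes, fell at the peak (-1.10 ± 0.12, adjusted p = 2.97e-06), stood 0.53 lower in start Cre+ libraries on the log2 scale without a call (start effect -0.53 ± 0.12, adjusted p = 0.119), and its interaction was -0.57 (adjusted p = 0.063). Of 33 lysosomal genes 8 fell (4.85% of all genes did) and 2 rose (6.83% did) at the peak, with a median of -0.14, and 0 were called at the start. Their interaction was lower for 2 (1.46% over all genes) and higher for 2 (2.45% over all genes). Sgsh, a sulfatase that degrades heparan sulfate, was among the lower. It stood at 20.5, 17.0 and 20.5 CPM in peak Cre+ libraries, against 32.8, 40.8 and 38.9 CPM in peak Cre- libraries. Over the start libraries Sgsh was 27.1 to 34.8 CPM. The interaction was -0.96 ± 0.18 (adjusted p = 0.00315).

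Several of the largest negative interactions belonged to markers of pericytes, the mural cells of capillaries. The 12 by the same rule were Abcc9 (-2.89), Car4 (-2.83), Vtn (-2.70), Rgs4 (-2.53), Pdgfrb (-2.47), Apcdd1 (-2.23), Cd22 (-2.20), Nid1 (-2.19), Tns2 (-2.08), Ptgfrn (-2.02), Plat (-2.01) and Slc16a9 (-1.91). Abcc9, a potassium channel subunit of pericytes, stood at 0.815, 1.86 and 1.40 CPM in peak Cre+ libraries, against 3.63, 6.27 and 1.85 CPM in peak Cre- libraries. At the start schedule, Cre+ libraries held 7.25, 7.27 and 7.43 CPM, against 3.89, 2.51 and 2.19 CPM in start Cre- libraries. Its start Cre+ libraries were above all others and its peak groups overlapped. The interaction was -2.89 ± 0.54 (adjusted p = 0.00331). Pdgfrb, the receptor that marks pericytes, stood at 2.34, 4.22 and 3.43 CPM in peak Cre+ libraries, against 8.37, 14.5 and 5.37 CPM in peak Cre- libraries. The start Cre+ values were 15.8, 14.8 and 14.4 CPM, against 9.79, 5.63 and 7.603 CPM in start Cre- libraries. The interaction was -2.47 ± 0.43 (adjusted p = 0.00323). Its effect was -1.50 at the peak and 0.97 at the start (adjusted p = 0.366 at the start). The calls of Car4, Vtn, Tns2, Plat and Slc16a9 were lost in 9, 11, 7, 4 and 7 of 12 leave-outs.

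Marker lists of vessel cells are given beside these genes. Of 10 mural markers, which include Abcc9, Pdgfrb and Vtn, 4 had a lower interaction (1.46% over all genes; 3 members without both neutrophil-rich libraries) and 10 of 10 a negative one (median -2.34). Their summed level was 16.9, 46.4 and 26.2 CPM in peak Cre+ libraries, against 74.8, 105.4 and 37.4 CPM in peak Cre- libraries, and 150.8, 139.0 and 161.1 CPM in start Cre+ libraries, against 95.3, 82.0 and 58.4 CPM in start Cre- libraries. The peak groups overlapped and the start Cre+ libraries were the highest 3. Without peak Cre- replicate 2, start Cre- replicate 2 or start Cre- replicate 3 the mural count was 2. The other called member, Kcnj8, had -3.27 (adjusted p = 0.022), lost in 5 of 12 leave-outs. Of 11 endothelial markers Pecam1 (-1.22, adjusted p = 0.0118) and Ly6a (-1.28, adjusted p = 0.0129) were lower, and of 11 astrocyte markers Slc1a3 (-0.80, adjusted p = 0.0126), a glutamate transporter, was. A lower interaction was called for 1.46% of all genes. Without both neutrophil-rich libraries the calls of Pecam1 and Slc1a3 were lost (adjusted p = 0.0655 and 0.0559). The call of Ly6a was lost without peak Cre- replicate 2 and with all 24 libraries (adjusted p at most 0.087). Summed astrocyte levels were 557.1 to 874.8 CPM in peak Cre+ and 1067 to 1689 CPM in peak Cre- libraries, and 978.2 to 1070 CPM in start Cre+ and 776.3 to 1417 CPM in start Cre- libraries. The summed endothelial levels were 457.1 to 587.5 CPM in peak Cre+ and 541.8 to 712.4 CPM in peak Cre- libraries, and 563.0 to 680.2 CPM in start Cre+ and 509.1 to 623.9 CPM in start Cre- libraries. In sorted bulk samples fewer cells of a type and less RNA per cell cannot be told apart, and the part of vessel cells carried through the sort was not tested.

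Some heat shock genes rose in Cre+ microglia at both schedules. Of 14 chaperone genes 6 rose at the peak (6.83% of all genes did; median 0.30) and 7 at the start (0.0826% did; median 0.70), and 5 rose at both. Hspa1a, an inducible Hsp70 whose copy Hspa1b is near-identical so that their reads may be split between them, stood at 734.4, 504.0 and 602.7 CPM in peak Cre+ libraries, against 291.4, 271.0 and 291.0 CPM in peak Cre- libraries. In start Cre+ libraries it was 1420, 1329 and 1103 CPM, against 438.9, 470.7 and 478.6 CPM in start Cre- libraries. No Cre+ library overlapped the Cre- libraries of its schedule, and the effects of 1.11 ± 0.12 at the peak and 1.47 ± 0.13 at the start gave an interaction of -0.36 (95% interval -0.72 to 0.00; adjusted p = 0.268). Hspa1b, Hsph1, Dnajb1 and Hsp90aa1 were the other members called at both schedules, while Hspb1 and Hspe1 were called at the start only.

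A lower interaction was called for 2 chaperones (1.46% over all genes) and a higher one for 0. Hspb1 (chromosome 5, 135887919 to 135889563), the small heat shock protein Hsp27, stood at 3.16, 3.73 and 3.00 CPM in peak Cre+ libraries, against 2.97, 3.67 and 3.70 CPM in peak Cre- libraries. Start Cre+ libraries held 12.2, 8.89 and 10.2 CPM, against 4.12, 4.42 and 3.42 CPM in start Cre- libraries. The interaction was -1.45 ± 0.34 (adjusted p = 0.0166). Only its start Cre+ libraries stood apart. Hspe1, the mitochondrial co-chaperonin, had -0.63 ± 0.16 (adjusted p = 0.0284), with 74.2 to 78.6 CPM in start Cre+ and 37.6 to 47.3 CPM in start Cre- libraries. Their calls were lost in 3 and 9 of 12 leave-outs, and without both neutrophil-rich libraries 0 chaperones were called lower.

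Outside the chaperones few genes were called with tamoxifen at the start. Crtap, a partner of the collagen prolyl 3-hydroxylase, stood at 27.5, 33.0 and 32.3 CPM in peak Cre+ libraries, against 26.6, 28.3 and 28.3 CPM in peak Cre- libraries. At the start schedule, Cre+ libraries held 44.6, 51.6 and 55.0 CPM, against 23.2, 28.2 and 23.3 CPM in start Cre- libraries. The interaction was -0.86 ± 0.17 (adjusted p = 0.00493). Nnt, the mitochondrial transhydrogenase, stood at 83.7 to 91.1 CPM in peak Cre+ libraries, against 79.9 to 89.2 CPM in peak Cre- libraries, and at 79.6, 107.0 and 102.4 CPM in start Cre+ libraries, against 62.4, 51.3 and 63.4 CPM in start Cre- libraries (-0.66 ± 0.16, adjusted p = 0.024, lost in 4 of 12 leave-outs). Its start Cre- libraries were the 3 lowest of the 12. The 10 genes called at both schedules had the same direction at both: 5 chaperones, Gadd45g (a stress-induced gene) and Syt6 (a synaptotagmin) rose, and Cx3cr1, Xlr4a and Gm10925 fell. Gadd45g had effects of 0.61 at the peak and 0.79 at the start.

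Of the 28 programme lists 10 had 0 called members in the interaction. They were the interferon response (29 genes, median -0.01), MHC class II (10, median -0.41), MHC class I (14, median -0.25), cholesterol biosynthesis (22, median 0.04), TGF-beta signalling (19, median 0.10), growth and repair factors (13, median 0.07), nuclear respiratory chain (27, median 0.13), mitochondrial mRNAs (13, median -0.14), cytosolic ribosomal proteins (29, median 0.12), and targets of miR-155, miR-146a and miR-124 (18, median 0.12). MHC class I genes, some of them near-identical copies that can share reads, nevertheless fell at the peak for 8 of 14 and mitochondrial mRNAs for 9 of 13, against 4.85% of all genes, with 0 called at the start for either; with no called interaction, a difference between the schedules was not shown. Of 20 dissociation and immediate early genes (median interaction 0.49) 1 was called higher (2.45% over all genes), Egr2 (1.07, adjusted p = 0.0208, lost in 5 of 12 leave-outs). The interaction was positive for 20 of the 20, with median effects of 0.00 at the peak and -0.65 at the start. Summed levels of the list were 3431 to 4752 CPM in peak Cre+ and 4391 to 4588 CPM in peak Cre- libraries, and 6802 to 8854 CPM in start Cre+ and 7885 to 13660 CPM in start Cre- libraries. The highest of these was start Cre- replicate 2, the neutrophil-rich library.

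Of 18 genes of the microRNA pathway tested besides Dicer1, 3 rose at the peak (6.83% of all genes did) and 1 had a higher interaction (2.45% over all genes): Ran, the GTPase whose bound form carries precursors out of the nucleus with exportin 5, at 122.4, 106.3 and 121.2 CPM in peak Cre+ libraries, against 85.4, 82.2 and 97.5 CPM in peak Cre- libraries, and 80.1, 79.6 and 85.5 CPM in start Cre+ libraries, against 94.8, 99.9 and 93.9 CPM in start Cre- libraries. The interaction was 0.63 ± 0.14 (adjusted p = 0.00995). Ran lay above at the peak and below at the start without overlap, and its call was lost without both neutrophil-rich libraries (adjusted p = 0.058). Of 21 let-7 targets 5 rose and 1 fell at the peak (6.83% and 4.85% over all genes). A higher interaction was called for 1, Cdc25a, a phosphatase that activates cyclin-dependent kinases (1.02 ± 0.24, adjusted p = 0.0198). These 1 of 18 and 1 of 21 are near the share over all genes. The call of Cdc25a was lost without peak Cre+ replicate 3, without start Cre- replicate 2 and without both neutrophil-rich libraries (adjusted p at most 0.132). Single called members of other lists were Psat1 (0.97) and Pfkfb3 (-0.77), enzymes of serine synthesis and of glycolysis control, Plin3 (-0.85), a lipid droplet coat protein, Megf10 (-2.22), an engulfment receptor of astrocytes, and the copper pump Atp7a (0.76) and metallothionein Mt2 (-1.83). With 1 library left out these calls were lost in 4 of 12 cases for Psat1, 2 for Pfkfb3, 4 for Plin3, 6 for Megf10, 7 for Atp7a and 10 for Mt2.

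**Figure D4:**
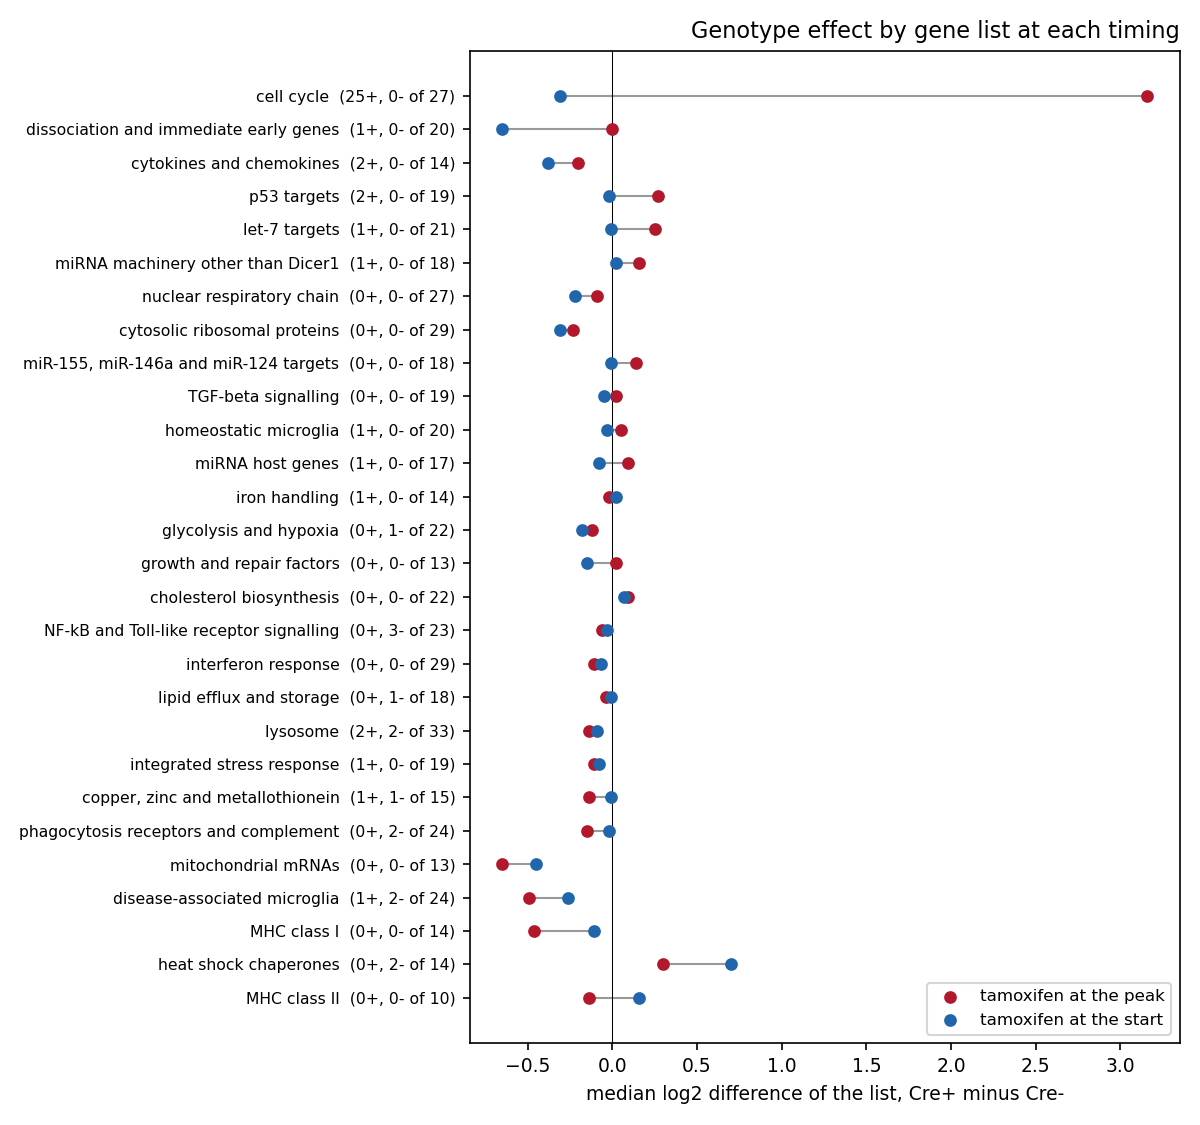
Median genotype effect (log2 of Cre+ minus Cre-) of each of 28 gene lists with tamoxifen at the peak (red) and at the start (blue), ordered by the median interaction, with the members called higher (+) and lower (-) in the interaction and the number tested in brackets. The cell cycle list, at 3.16 and -0.31, is the widest pair, and the heat shock list is above 0 at both schedules.

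Values from the other states of the series stand beside these as context. The labels give tamoxifen at the start for every naive and demyelination library. The values come from a fit of all 24 libraries. In it 28.3% of 17579 genes were called in naive microglia (14.7% higher, 13.7% lower in Cre+) and 9.17% in demyelination (5.69% higher, 3.48% lower). Of the 27 cell cycle genes 21 rose in naive Cre+ microglia (median 1.54) and 24 in demyelination Cre+ microglia (median 1.55). There 3 of the 6 libraries labelled Cre+ had Cx3cr1 at 89.6 to 227.1 CPM, far below the 2312 to 4571 CPM of the other 3, so they stand apart from their groups. Mki67 stood at 3.46, 18.2 and 18.4 CPM in naive Cre+ libraries, against 2.80, 3.63 and 4.65 CPM in naive Cre- libraries, and at 26.9, 28.9 and 27.8 CPM in demyelination Cre+ libraries, against 7.18, 6.42 and 7.95 CPM in demyelination Cre- libraries. The lowest of the naive Cre+ libraries is 1 of the 3 that stand apart, and it lies within the range of the naive Cre- libraries. Cd22 stood at 0.842, 3.04 and 2.54 CPM in naive Cre+ libraries, against 18.7, 10.5 and 13.4 CPM in naive Cre- libraries, while Cdkn1a was not called in naive (-0.22) or demyelination (0.52) microglia. Several genes that moved at the peak were called in the same direction in both states. Effects (naive, then demyelination) were 0.76 and 0.91 for Sparc, 0.87 and 0.64 for Slc40a1, and 0.69 and 0.62 for Sgk1. They were -0.66 and -1.16 for Cyp27a1, -0.38 and -0.74 for Pirb, and -0.72 and -1.15 for Sgsh. S1pr1 (-1.86) and Fblim1 (-1.11) were called in naive only. Ctsd fell in naive (-0.71) and rose in demyelination (0.45). Dicer1, by counts over the whole gene, was called higher in naive Cre+ microglia (0.72, adjusted p = 0.00151). It was not called in demyelination (-0.45, adjusted p = 0.0922). Libraries of these states carry yet another naming scheme, so a level that differs between them and remyelination cannot be told apart from a difference in handling.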

How the data were processed

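Flow-sorted microglial RNA was sequenced in 24 libraries, of which 12 enter here. The authors deposited raw counts per Ensembl gene. The submitters' processing notes name Trimmomatic 0.36, STAR 2.5.2b, featureCounts from Subread 1.5.2 and DESeq2, with GRCm38 as the build. Strand use and the handling of reads with several matches have no source here, so overlapping, antisense and near-identical genes are uncertain. Of 49315 identifiers 49056 matched GENCODE M21, which gave symbols and positions.

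Genes were kept by filterByExpr with 4 groups (15743 genes) and fitted over the 12 libraries with robust quasi-likelihood in edgeR 4.0.16 (R 4.3.3, TMM, 8 residual degrees of freedom, 2-sided). The series text calls the replicates biological; whether each is 1 animal is not said, so p-values reflect the spread of these libraries. Named genes are Dicer1, Cx3cr1, the 12 largest called interactions in each direction and up to 3 members with the smallest interaction p of each of 28 programme lists. The largest interactions were taken at a mean log2 CPM of at least 2, with predicted, Riken, Y-linked, haemoglobin and immunoglobulin genes and Xist left out. Another 12 marker lists were also used. All other genes were chosen after their values were seen. The groups and lists were chosen with earlier results of these data known. Same-numbered peak libraries deviated together (r of 0.182, 0.344 and 0.104 across genes), start libraries did not (0.04, -0.035 and -0.041). No replicates were duplicates. The procedure was tested on simulated data. Alternatives were DESeq2 1.42.0, RLE size factors, no filter, all 24 libraries, a GC and length offset (mgcv 1.9.3), a replicate block and leaving out each library.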

Additional observations from a re-analysis of the deposited data

Results flagged for a closer look

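The genotype effect differed between tamoxifen at the peak and tamoxifen at the start for 616 genes by the test of the difference itself (edgeR's quasi-likelihood test of the interaction, adjusted p under 0.05). Among the genes named in the text, 78 passed this test, 43 with a higher and 35 with a lower interaction, given here as log2 of the peak effect minus the start effect.

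The higher ones over 2 were Pbk (5.52), Kif18b (5.45), Mki67 (5.38), Rrm2 (5.02), Pimreg (4.97), Ube2c (4.92), Kif11 (4.82), Ccnb1 (4.76), Birc5 (4.58), Top2a (4.50), Kif23 (4.40), Ccnb2 (4.39), Aurkb (3.91), Plk1 (3.77), Bub1b (3.65), Ccna2 (3.21), Foxm1 (2.93), Cdk1 (2.82), Cdkn1a (2.16). The remaining higher ones were Mcm5 (1.99), Itgb3 (1.93), Ccl2 (1.79), Nid2 (1.79), E2f1 (1.76), Ccl7 (1.68), Mcm2 (1.57), Tbc1d5 (1.55), Mcm6 (1.28), Mcm7 (1.21), Egr2 (1.07), Heatr1 (1.05), Sgk1 (1.03), Cdc25a (1.02), Psat1 (0.97), Slc40a1 (0.83), Il6st (0.82), Cd34 (0.80), Atp7a (0.76), Pcna (0.76), Sparc (0.69), Ran (0.63), Ctsl (0.62), Sesn1 (0.62). Il6st, not described above, lost its call in 8 of 12 leave-outs of 1 library.

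The lower ones under -2 were Kcnj8 (-3.27), Abcc9 (-2.89), Car4 (-2.83), Vtn (-2.70), Rgs4 (-2.53), Pdgfrb (-2.47), Apcdd1 (-2.23), Megf10 (-2.22), Cd22 (-2.20), Nid1 (-2.19), Tns2 (-2.08), Ptgfrn (-2.02), Plat (-2.01). The remaining lower ones were Slc16a9 (-1.91), Mt2 (-1.83), Hspb1 (-1.45), Fblim1 (-1.29), Ly6a (-1.28), Pecam1 (-1.22), Pirb (-1.04), Lag3 (-1.01), Sgsh (-0.96), Cyp27a1 (-0.92), S1pr1 (-0.88), Crtap (-0.86), Plin3 (-0.85), Slc1a3 (-0.80), Tlr1 (-0.78), Pfkfb3 (-0.77), Tnfaip2 (-0.72), Nnt (-0.66), Ctsd (-0.63), Nfkbie (-0.63), Hspe1 (-0.63), Timp2 (-0.56). The causes of these differences were not tested.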

How the results depend on the processing

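The interaction was called for 616 genes, and for 662 with all 24 libraries, 910 with DESeq2 (613 of them among the 616), 611 with RLE size factors, 813 with GC content and length corrected, 1022 without a filter on low counts, and 293 without both neutrophil-rich libraries. With 1 library left out it was 314 to 983. The share of higher calls was 62.7% and became 76.3% with all 24 libraries. With a replicate block, which the same numbers pair at the peak and not at the start, the interaction count was 806 (590 among the 616) and the peak count 2174, against 1840 without it. The peak count was 907 to 2230 with 1 library left out and 1137 without both neutrophil-rich libraries. The start count of 16 became 6 with all 24 libraries, 47 with DESeq2, 140 without a filter, 28 with the replicate block, 11 to 34 with 1 library left out and 10 without both neutrophil-rich libraries. The cause of these shifts was not tested. The cell cycle count was 24 to 26 under every alternative run. Of 78 named genes with a called interaction, 39 were called under all 19 alternatives, 39 lost the call under at least 1 and 31 when 1 library was left out, and no called gene changed sign. With all 24 libraries alone, the calls of Apcdd1, S1pr1, Nid2 and Crtap were lost (adjusted p = 0.175, 0.111, 0.0658 and 0.112), and without both neutrophil-rich libraries alone that of Nid1 (adjusted p = 0.058). The uncalled interaction of Dicer1 (-0.02) was 0.04 with all 24 libraries and with GC content and length corrected, and positive, at 0.01 to 0.02, without peak Cre- replicate 1 or 2, start Cre+ replicate 3, or start Cre- replicate 1 or 3. Over all leave-outs of 1 library it was -0.09 to 0.02. That of Syt6 (0.07) was -0.18 to 0.45 over the leave-outs, with a negative value in 5 of them. The lowest level at which an effect can be seen is set by 8873275 counts in the shallowest library and by 3 libraries a group.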
